A study of Mus musculus with 240 samples.

Results

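The set described here is 42 mouse genes of mitosis and the G2/M stage of the cell cycle, listed by symbol with earlier results of these arrays known. A probe counted for a member when its annotated symbol or synonym was that of the member, and the probes of a gene were averaged. Of the 42 genes, 40 had a probe (42 probes in all), among 19896 genes measured. Ccnb1 (cyclin B1) and Ube2c had no named probe and have no value. Aurka and Prc1 had 2 probes each, and the other 38 members had 1.

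The arrays measured RNA of male mice of 2 inbred strains, BTBR and C57BL/6 (B6), that were either obese (ob, carrying the leptin mutation Lep ob) or lean, at 10 or 4 weeks of age. Leptin is the satiety hormone made by fat cells, and ob mice overeat from weaning. In each of 6 tissues (hypothalamus, liver, pancreatic islets, gonadal fat and the gastrocnemius and soleus muscles) there were 8 groups, BTBR ob, BTBR lean, B6 ob and B6 lean at each age, with 5 mice per group, which made 240 arrays. Most mice gave several tissues (36 of 43 gave all 6), so the tissues share animals and are not independent.

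Each array compared 1 mouse with a pool of the same strain and tissue, and the values are given here as log2 of mouse over pool. A value says how a mouse stood relative to that pool, made by the labels from equal portions of RNA of 20 samples of the strain (19 for BTBR liver; the title of the BTBR adipose pool names BTBRob), and carries no level that can be compared between genes, tissues or strains. For that reason a tissue could not be checked against the level of its own markers. The labels do not give the channel that held the mouse. The likely direction was taken from leptin RNA in adipose tissue and from the most variable probes: in 11 of 12 strain and tissue sets, most of the 200 most variable probes averaged below 0, as they do when a few mice carry a strong signal that the pool dilutes. Arrays against the same pool correlated as low as -0.65. If the ratio ran the other way, every rise below would read as a fall and each pair of higher and lower counts would swap.

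Traces of neighbouring tissues were visible on some arrays. Over 22 measured genes of testis germ cells (a list written after values were seen), the mean in gonadal adipose tissue stood above the pool in 6 lean mice: at 2.71, 0.79 and 0.16 in BTBR lean mice 33, 32 and 31 at 10 weeks, at 1.57 in BTBR lean mouse 37 at 4 weeks, and at 2.47 and 1.13 in B6 lean mice 23 and 20 at 10 weeks. In every ob mouse that mean was below the pool. Testis holds dividing cells, so adipose results are also given without these mice. In soleus at 4 weeks, 6 hepatocyte genes averaged 3.13 in BTBR lean mouse 36, 2.72 in B6 lean mouse 31 and 1.77 in B6 ob mouse 11, and 8 kidney tubule genes averaged 3.11 in B6 lean mouse 35.

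As background, cells that pass from G2 into mitosis switch on a large group of genes together. Cyclins A and B activate the kinase Cdk1; Aurora and Polo kinases build the spindle; the kinetochore attaches chromosomes to it, and a checkpoint (Mad2l1, Bub1, Bub1b, Ttk) holds the cell until all are attached. The anaphase-promoting complex with its activator Cdc20 then destroys cyclin B, and cytokinesis proteins such as Racgap1, Ect2, Anln and Prc1 divide the cell. Repressor and activator complexes that bind short promoter elements (the CHR, with the core TTTGAA or TTTAAA, and CCAAT boxes bound by NF-Y) keep these genes off in resting cells and on in dividing ones. In adult tissue most cells rest, so RNA of the group is commonly read as a sign of dividing cells. In a bulk sample, fewer dividing cells and less RNA per cell cannot be told apart.

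Shown here are the promoters of 7 members, to set the elements beside the genes: 6 are named with their values below, and Ccnb2 is the measured B-type cyclin. Each run is 280 bases, from 250 bases before the RefSeq start of transcription to 30 after it, on the gene's own strand in GRCm38.p6, with capitals for TTTGAA and for the forms TTTAAA and CCAAT, each read on either strand.
Mki67 (chr7:135716350-135716629, minus strand): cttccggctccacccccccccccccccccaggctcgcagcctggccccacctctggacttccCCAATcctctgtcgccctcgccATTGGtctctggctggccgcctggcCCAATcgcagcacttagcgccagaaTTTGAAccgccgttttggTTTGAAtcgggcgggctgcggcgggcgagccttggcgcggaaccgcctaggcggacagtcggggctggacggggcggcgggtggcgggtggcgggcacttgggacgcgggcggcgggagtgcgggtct
Cdk1 (chr10:69352883-69353162, minus strand): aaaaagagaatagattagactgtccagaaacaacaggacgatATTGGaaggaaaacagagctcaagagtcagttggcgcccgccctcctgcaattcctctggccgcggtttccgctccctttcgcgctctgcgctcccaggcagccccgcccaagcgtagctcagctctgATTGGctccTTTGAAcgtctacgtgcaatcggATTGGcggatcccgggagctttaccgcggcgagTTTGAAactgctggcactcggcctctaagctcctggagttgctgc
Ccnb2 (chr9:70421525-70421804, minus strand): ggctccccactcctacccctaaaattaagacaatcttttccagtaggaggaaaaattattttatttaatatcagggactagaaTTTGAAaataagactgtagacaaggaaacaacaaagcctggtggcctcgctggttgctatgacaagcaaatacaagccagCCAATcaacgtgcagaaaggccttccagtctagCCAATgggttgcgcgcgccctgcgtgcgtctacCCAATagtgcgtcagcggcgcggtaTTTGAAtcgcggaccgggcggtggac
Cdc20 (chr4:118437314-118437593, minus strand): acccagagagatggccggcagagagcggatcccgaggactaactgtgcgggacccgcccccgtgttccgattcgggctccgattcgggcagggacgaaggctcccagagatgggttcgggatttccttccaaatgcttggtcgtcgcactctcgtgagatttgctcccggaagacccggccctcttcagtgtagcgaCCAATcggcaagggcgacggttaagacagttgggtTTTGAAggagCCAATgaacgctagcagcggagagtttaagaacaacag
Racgap1 (chr15:99651627-99651906, minus strand): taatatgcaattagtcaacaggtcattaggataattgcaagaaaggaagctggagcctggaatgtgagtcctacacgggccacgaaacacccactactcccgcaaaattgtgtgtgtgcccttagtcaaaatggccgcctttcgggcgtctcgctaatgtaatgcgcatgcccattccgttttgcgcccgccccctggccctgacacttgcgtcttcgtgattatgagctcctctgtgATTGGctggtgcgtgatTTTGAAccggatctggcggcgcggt
Aurka (chr2:172370541-172370820, minus strand): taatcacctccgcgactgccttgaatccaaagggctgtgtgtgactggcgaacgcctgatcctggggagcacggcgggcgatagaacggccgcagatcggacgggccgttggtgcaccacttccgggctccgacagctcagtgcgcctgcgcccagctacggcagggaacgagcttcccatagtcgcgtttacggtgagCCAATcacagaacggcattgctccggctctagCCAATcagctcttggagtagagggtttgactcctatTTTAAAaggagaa
Mad2l1 (chr6:66534971-66535250, plus strand): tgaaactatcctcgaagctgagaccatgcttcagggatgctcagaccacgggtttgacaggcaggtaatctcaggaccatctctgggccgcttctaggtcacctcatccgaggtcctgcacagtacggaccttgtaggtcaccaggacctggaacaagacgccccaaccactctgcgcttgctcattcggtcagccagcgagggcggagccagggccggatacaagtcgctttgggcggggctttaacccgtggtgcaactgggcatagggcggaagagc

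Mki67, Cdk1 and Ccnb2 each held TTTGAA 2 times and CCAAT 3 times, while the Mad2l1 window held none of these letters. Racgap1 is shown because its obesity difference ran against that of most other members in islets of the older BTBR mice. Mad2l1 is shown because its obesity difference passed the test in liver of the older mice, where most members did not pass. Within groups, with each group's mean subtracted, both followed the mean of the other members (r = 0.91 for Racgap1 in islets and 0.97 for Mad2l1 in liver). Differences between groups, such as that of ob and lean mice, do not enter these correlations. Over the full window, 250 bases before to 50 after the start, 29 of 35 members with a RefSeq promoter entry held TTTGAA or TTTAAA on either strand (82.9%), against 34 of 52 other mitosis genes (65.4%) and 8261 of 27025 genes with an entry (30.6%). CCAAT was in 77.1% of members, 69.2% of the other mitosis genes and 41.1% of all genes. Both kinds of element were in 71.4% of members, 46.2% of the other mitosis genes and 12.2% of all genes. Cks2, Melk, Bub1, Mad2l1, Nuf2 and Nusap1 had neither TTTGAA nor TTTAAA in the window. In the 250 bases before the start alone, TTTGAA or TTTAAA was in 48.6% of members, 51.9% of the other mitosis genes and 28.1% of all genes, so the order of the members and the other mitosis genes depends on the window. A match is a run of letters and not a shown binding site.

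**Figure D1:**
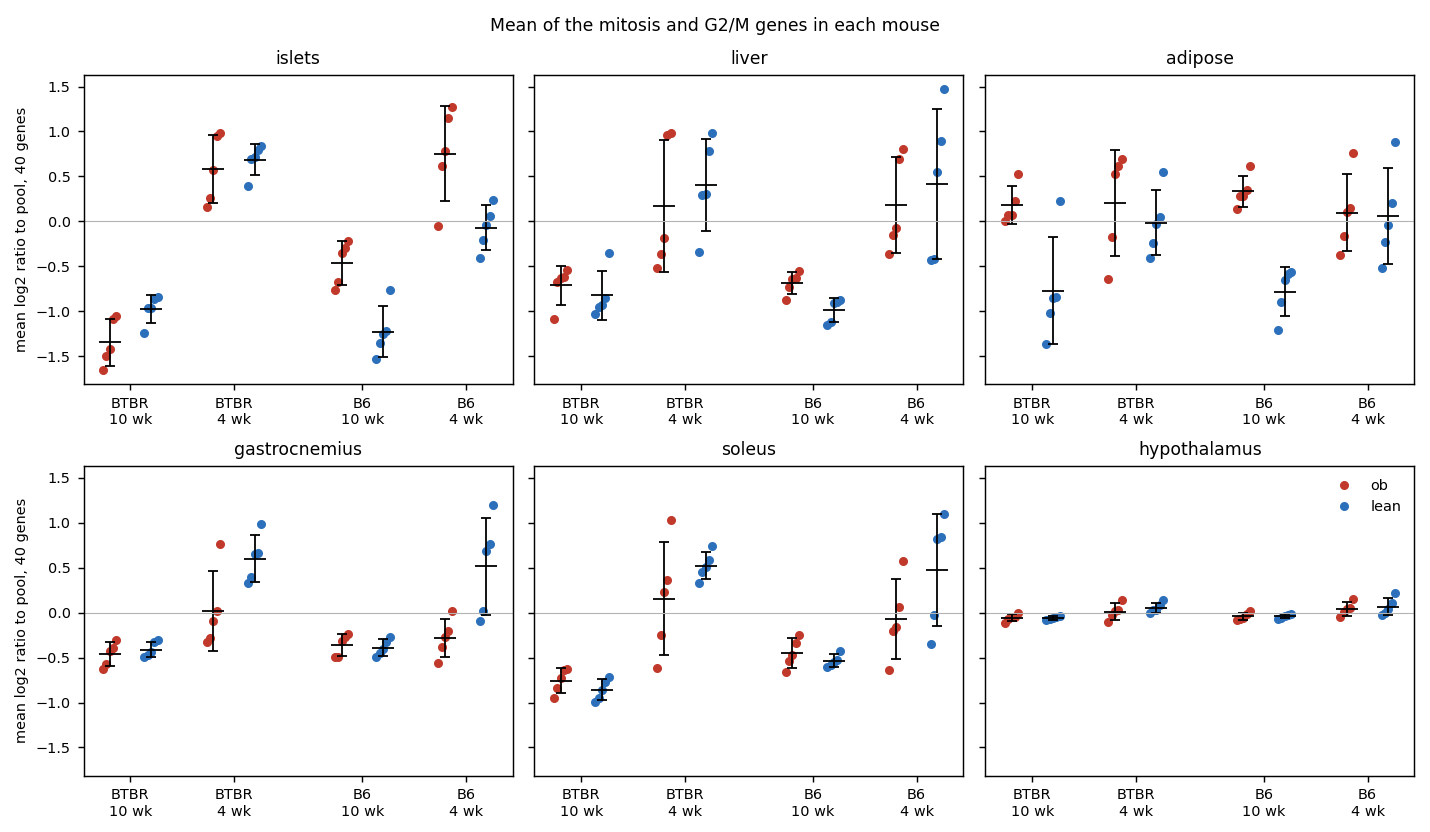
Mean log2 ratio to the pool over the 40 measured genes, 1 point per mouse, for ob (red) and lean (blue) mice of each strain and age in 6 tissues; bars give the group mean and SD (n = 5). At 10 weeks the ob mice lie above the lean mice in adipose tissue of both strains, apart from BTBR lean mouse 33; the 4-week mice spread most widely in liver and soleus, and the hypothalamus stays near 0.

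Most of the 40 genes moved together among mice of the same group in 5 of the 6 tissues. The mean of each group (strain, genotype and age) was subtracted first, so differences between groups do not enter. The correlation with the mean of the other members was then over 0.5 for 38 members in islets, 37 in liver and 37 in adipose tissue. It was over 0.5 for 34 in gastrocnemius, 38 in soleus and 16 in hypothalamus. Of 19856 genes outside the set, 5.38%, 3.68%, 4.69%, 3.84%, 3.11% and 0.559% correlated over 0.5 with the members' mean, in the same order of tissues. The hypothalamus count, though smaller, is thus also far above the share of other genes. Over these deviations in the 40 arrays of a tissue, the median correlation of a member with the mean of the others was 0.96 in liver. It was 0.93 in adipose tissue, gastrocnemius and soleus, 0.92 in islets and 0.41 in hypothalamus. These correlations are descriptions over arrays that share a pool in each strain. Kif23 (a cytokinesis kinesin) and Dlgap5 (a spindle protein, annotated by the older name Dlg7) followed the others in no tissue, with correlations of -0.31 to 0.02 for Kif23 and -0.07 to 0.19 for Dlgap5. In gastrocnemius Aurka (0.07), Top2a (0.14), Tpx2 (0.31) and Ckap2 (0.48) also stood apart. Of genes outside the set, the one closest to the members' mean was Knstrn in islets (r = 0.962), Kif22 in liver (0.990), Kif15 in adipose tissue (0.986), Ncapg in gastrocnemius (0.978), Fam83d in soleus (0.955) and Ckap2l in hypothalamus (0.732), each over 40 arrays.

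Mitosis genes were higher in adipose tissue of ob than of lean mice in both strains at 10 weeks. In BTBR mice 27 of 40 members were higher in ob than in lean mice and none lower, with a median log2 difference of 0.98 (limma, adjusted p under 0.05 over all genes; 22.7% of all genes were called higher and 21.4% lower). In B6 mice 36 were higher and none lower, with a median of 1.18 (23.4% of all genes higher and 18.3% lower). The median over all genes was 0.021 in BTBR and 0.014 in B6.

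Mki67, the gene of the Ki-67 antigen of dividing cells, shows the size of the difference. In BTBR ob mice at 10 weeks it was 0.07, 0.25, 0.26, 0.39 and 0.93, against -2.66, -2.13, -2.03, -1.79 and -1.15 in BTBR lean mice. In B6 ob mice it was 0.09, 0.33, 0.41, 0.43 and 0.77, against -2.39, -1.68, -1.55, -1.36 and -0.72 in B6 lean mice. The groups did not overlap in either strain: every ob mouse lay above every lean one. The difference was 2.33 ± 0.35 (SE; limma adjusted p = 1.9e-06) in BTBR and 1.95 ± 0.35 (adjusted p = 3.1e-05) in B6.

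Members of nearly every role took part. Among cyclins and their partners, Ccna2 (cyclin A2) was higher by 2.16 ± 0.32 in BTBR (limma adjusted p = 1.4e-06) and by 1.81 ± 0.32 in B6 (adjusted p = 2.3e-05). Of 4 such genes measured 2 were higher in BTBR and 4 in B6. Aurkb, the kinase of the chromosomal passenger complex, was 0.42, 0.45, 0.55, 0.58 and 0.91 in BTBR ob mice, against -1.70, -1.65, -1.52, -0.98 and -0.71 in BTBR lean mice, again without overlap. All 3 members of that complex, which corrects faulty chromosome attachments, were higher in both strains, with Aurkb at 1.90 ± 0.28 in BTBR and 1.88 ± 0.28 in B6 (limma adjusted p = 1.3e-06 and 1.5e-06). Kinetochore and checkpoint genes were higher for 7 of 8 in BTBR and 8 of 8 in B6; Cenpa, the histone that marks centromeres, differed by 2.02 ± 0.25 in BTBR (adjusted p = 3.7e-08) and 1.33 ± 0.25 in B6 (adjusted p = 4e-05). Spindle genes were higher for 7 of 9 in each strain and cytokinesis genes for 4 of 6 in BTBR and 5 of 6 in B6. The mitotic kinases gave the widest gap between strains in count, 1 of 5 in BTBR (Melk) and 5 of 5 in B6, but no member's strain difference passed the test at 10 weeks (6.91% of all genes higher and 6.01% lower) or at 4 weeks (0.472% and 0.774%), and none had an unadjusted p under 0.05.

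BTBR lean mouse 33 decides part of the gap. Its mean over the 40 members was 0.23, against -1.36 to -0.84 in the other 4 BTBR lean mice, and its testis gene mean was the highest of all 40 adipose arrays. Kif2c, a kinesin that takes microtubules apart, was -2.63, -2.23, -0.24, 0.76 and 3.08 in BTBR lean mice 26, 30, 31, 32 and 33, whose testis gene means were -3.94, -2.95, 0.16, 0.79 and 2.71. Pbk (1.47), Cdca3 (1.33), Ttk (1.31) and Cdc20 (1.06) were also high in mouse 33. Mki67 (-1.79), Ccna2 (-1.92) and Cenpa (-1.81) were as low in it as in the other BTBR lean mice. Without this mouse 36 members were higher in BTBR ob mice at 10 weeks (median 1.28). Without all 6 mice whose testis genes stood above the pool, 36 were higher in BTBR (median 1.39) and 38 in B6 (median 1.27). These mice were picked after their values were seen, and leaving them out leaves 2 BTBR lean and 3 B6 lean mice at 10 weeks. The share of all genes called was not counted in fits without some mice or with a covariate, here or below. The part of testis RNA in single members was not tested. No overlap between ob and lean mice was seen for 14 members in BTBR (14.5% of all genes were without overlap and higher) and for 36 in B6 (18.6%).

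Macrophage markers, like the mitosis genes, were higher in ob mice in this tissue at 10 weeks. At 10 weeks the mean of 10 markers was 0.71 to 1.01 in BTBR ob mice, against -1.07 to -0.31 in BTBR lean mice, and 0.57 to 0.80 in B6 ob mice, against -0.86 to 0.04 in B6 lean mice. Of the 10, 8 were higher and 0 lower in BTBR (22.7% of all genes higher and 21.4% lower), and 7 higher and 1 lower in B6 (23.4% and 18.3%). Itgax, the integrin CD11c of inflammatory macrophages, was higher by 3.94 in BTBR and 2.88 in B6. At 4 weeks the markers were also higher in ob mice (6 of 10 in each strain, against 18.5% of all genes in BTBR and 18% in B6). Their means were -0.78 to -0.35 in BTBR ob mice, against -1.31 to -0.98 in BTBR lean mice. The mitosis genes did not share this, with 1 of 40 higher in each strain at 4 weeks. With the marker mean as a covariate, 12 members were higher in BTBR and 33 in B6 at 10 weeks. The medians were then 1.76 and 1.67, against 0.98 and 1.18 without it. The shares given here for all genes belong to the fit without the covariate. All 6 adipocyte markers were lower in ob mice of both strains. The part of macrophages or of fewer adipocytes in the result was not tested.

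**Figure D2:**
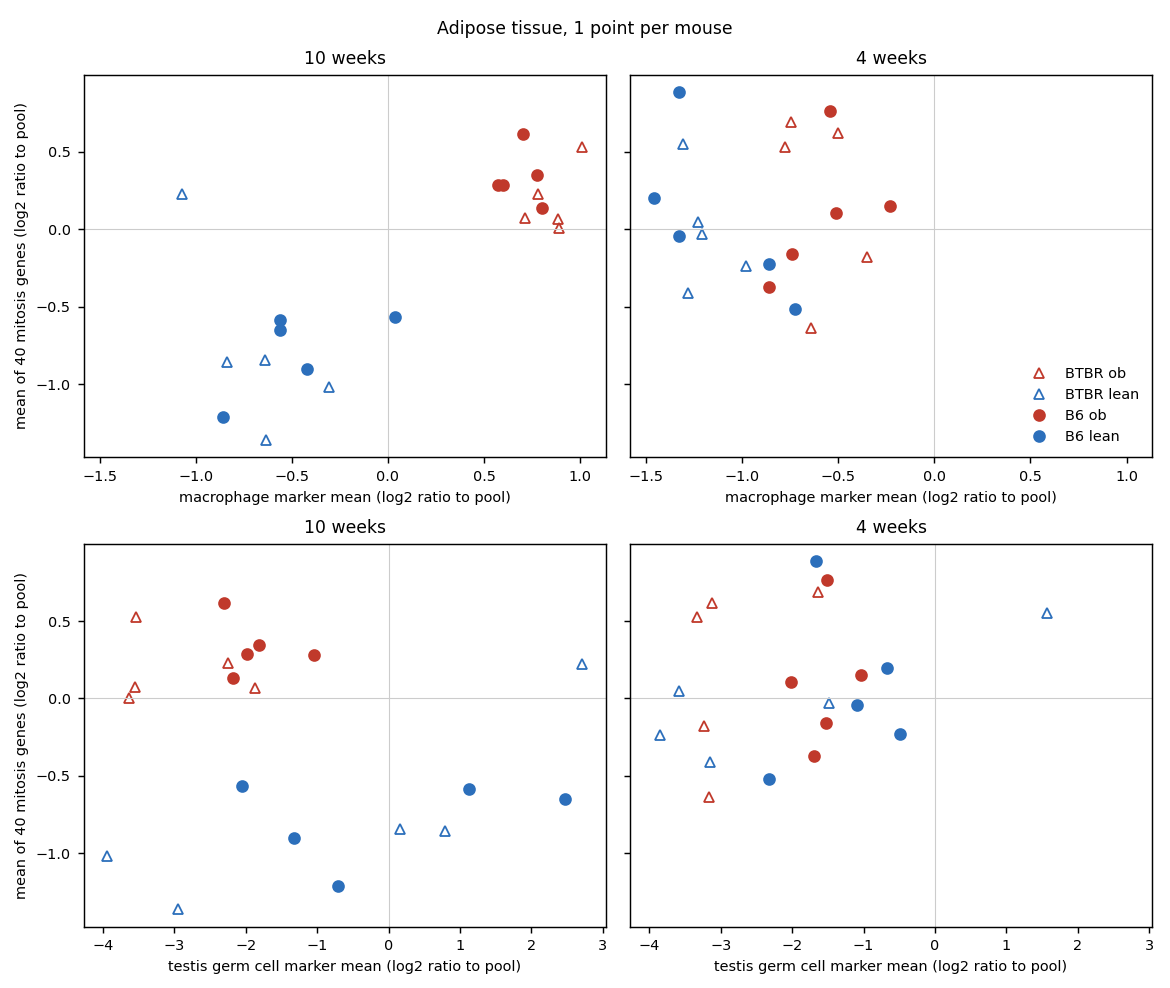
Mean of the 40 mitosis genes against the mean of 10 macrophage markers (top) or 22 testis germ cell genes (bottom) in adipose tissue, log2 ratio to the pool, 1 point per mouse, at 10 and at 4 weeks; red is ob, blue lean, open triangles BTBR and filled circles B6. At 10 weeks the ob mice lie at high macrophage values and above the lean mice, except beside BTBR lean mouse 33, which has the highest testis value (2.71).

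At 4 weeks the same tissue gave almost no difference. Only Mad2l1, a subunit of the spindle checkpoint, was higher, by 0.73 ± 0.16 in BTBR (limma adjusted p = 0.00042) and 0.41 ± 0.16 in B6 (adjusted p = 0.04). The background was 18.5% of all genes higher and 13.4% lower in BTBR, and 18% and 15.2% in B6. Mki67 at 4 weeks was -0.88, -0.14, 0.77, 0.88 and 1.16 in BTBR ob mice, against -0.48, -0.09, 0.06, 0.34 and 0.42 in BTBR lean mice, so 3 of the 5 ob mice lay above every lean mouse and the other two did not. The difference was 0.31 ± 0.35 (limma adjusted p = 0.53). The change of the obesity difference between the ages (10 minus 4 weeks) was itself tested: it was positive for 8 members in BTBR (11.4% of all genes higher and 9.32% lower) and for 16 in B6 (6.49% and 4.65%), with none negative. For Mki67 it was 2.02 ± 0.50 in BTBR (limma adjusted p = 0.0031) and 2.06 ± 0.50 in B6 (adjusted p = 0.006). Without BTBR lean mouse 33 it was positive for 19 members in BTBR and 23 in B6. With the macrophage covariate it was 0 in BTBR and 18 in B6.

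Across the ages, members fell in lean mice. At 10 minus 4 weeks, 18 members were lower in BTBR lean adipose tissue (7.53% of all genes higher and 9.86% lower) and 19 in B6 lean (8.61% and 9.5%), with none higher. In ob mice the count was 1 higher in BTBR (Anln, a cytokinesis scaffold, by 0.64 ± 0.15, limma adjusted p = 0.00079; 20.1% of all genes higher and 20.4% lower) and 0 in B6 (16% and 15.5%; 2 members had an unadjusted p under 0.05). Mki67 fell by 2.00 ± 0.35 in BTBR lean mice and by 1.69 ± 0.35 in B6 lean mice (limma adjusted p = 0.00011 and 0.00086). Without BTBR lean mouse 33, 35 members were lower in BTBR lean mice and 28 in B6 lean mice. With the macrophage covariate 11 were lower in BTBR lean mice (median -0.49, against -0.78 without it) and 3 in B6 lean mice (median -0.47, against -0.86).

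In gastrocnemius, a mixed leg muscle of mostly fast fibres, the obesity difference ran the other way and at the other age. At 4 weeks 17 members were lower in BTBR ob than in BTBR lean mice and none higher (median -0.53; 2.85% of all genes higher and 3.02% lower), and 34 were lower in B6 ob mice (median -0.76; 6.84% and 7.55%). Mki67 was -1.06, -0.74, -0.42, 0.14 and 1.72 in BTBR ob mice, against 0.75, 0.81, 1.20, 1.42 and 1.80 in BTBR lean mice. In B6 ob mice it was -1.63, -1.0, -0.85, -0.70 and 0.30, against -0.21, -0.08, 1.44, 1.52 and 2.22 in B6 lean mice. In each strain 1 ob mouse lay within the lean range, BTBR mouse 13 and B6 mouse 5. The fit gave each gene 1 variance for both ages. The members' mean spread more within groups at 4 weeks (pooled SD 0.388, against 0.110 at 10 weeks). The same held in liver (0.668 and 0.196) and soleus (0.502 and 0.127). The limma errors of these genes may therefore be too small at 4 weeks and too large at 10 weeks.

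The drop spanned the roles in B6: 4 of 4 cyclins and partners, 4 of 5 kinases, 3 of 3 passenger proteins, 8 of 8 kinetochore and checkpoint genes, 7 of 9 spindle genes and 5 of 6 cytokinesis genes were lower. Bub1, a checkpoint kinase, was -1.05, -0.78, -0.52, -0.32 and -0.11 in B6 ob mice, against -0.05, -0.03, 1.19, 1.20 and 2.14 in B6 lean mice. The 2 lowest lean mice, 34 and 31, lay close to the highest ob mouse. Bub1 differed by -1.45 ± 0.29 (limma adjusted p = 0.00085) and Cks2, a small partner of Cdk1, by -1.51 ± 0.31 (adjusted p = 0.0013). In BTBR the largest called difference was that of Aurkb, -1.12 ± 0.32 (adjusted p = 0.033), and 36 members had an unadjusted p under 0.05. The BTBR count rests on single mice: it was 0 without BTBR lean mouse 37 and 36 without BTBR ob mouse 13. The strain difference was 0 of 40 at 4 weeks, with none at an unadjusted p under 0.05 (0.0452% of all genes higher and 0.116% lower), and 0 of 40 at 10 weeks by limma, with 2 at that p (2.73% and 3.88%). Of 6 muscle stem cell markers, Myog (-1.34) and Vcam1 (-0.41) were lower in B6 ob mice at 4 weeks; their part in the result was not tested.

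Little difference between ob and lean mice was left in this muscle at 10 weeks. In BTBR 3 members were lower (11.9% of all genes higher and 13.3% lower), Aurka by 0.72 ± 0.08 on the log2 scale (limma adjusted p = 4.4e-09), Cenpa and Kif23. In B6 Aurka alone was lower, by 0.38 ± 0.08 (adjusted p = 0.00036; 8.18% and 8.06%). Aurka, the kinase that ripens the spindle poles, was -0.56, -0.44, -0.35, -0.24 and -0.23 in BTBR ob mice, against 0.27, 0.32, 0.37, 0.39 and 0.41 in BTBR lean mice, without overlap. Its 2 probes disagreed (r = 0.11 over 40 arrays): the BTBR difference was -1.35 on one and -0.08 on the other. The call is therefore uncertain for the gene. The change of the obesity difference between the ages was positive for 20 members in B6 (4.69% of all genes higher and 2.88% lower) and 1 in BTBR (Aspm, a spindle pole protein; 2.48% and 3.34%), where Aurka was negative. The B6 count was 6 without B6 lean mouse 35.

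**Figure D3:**
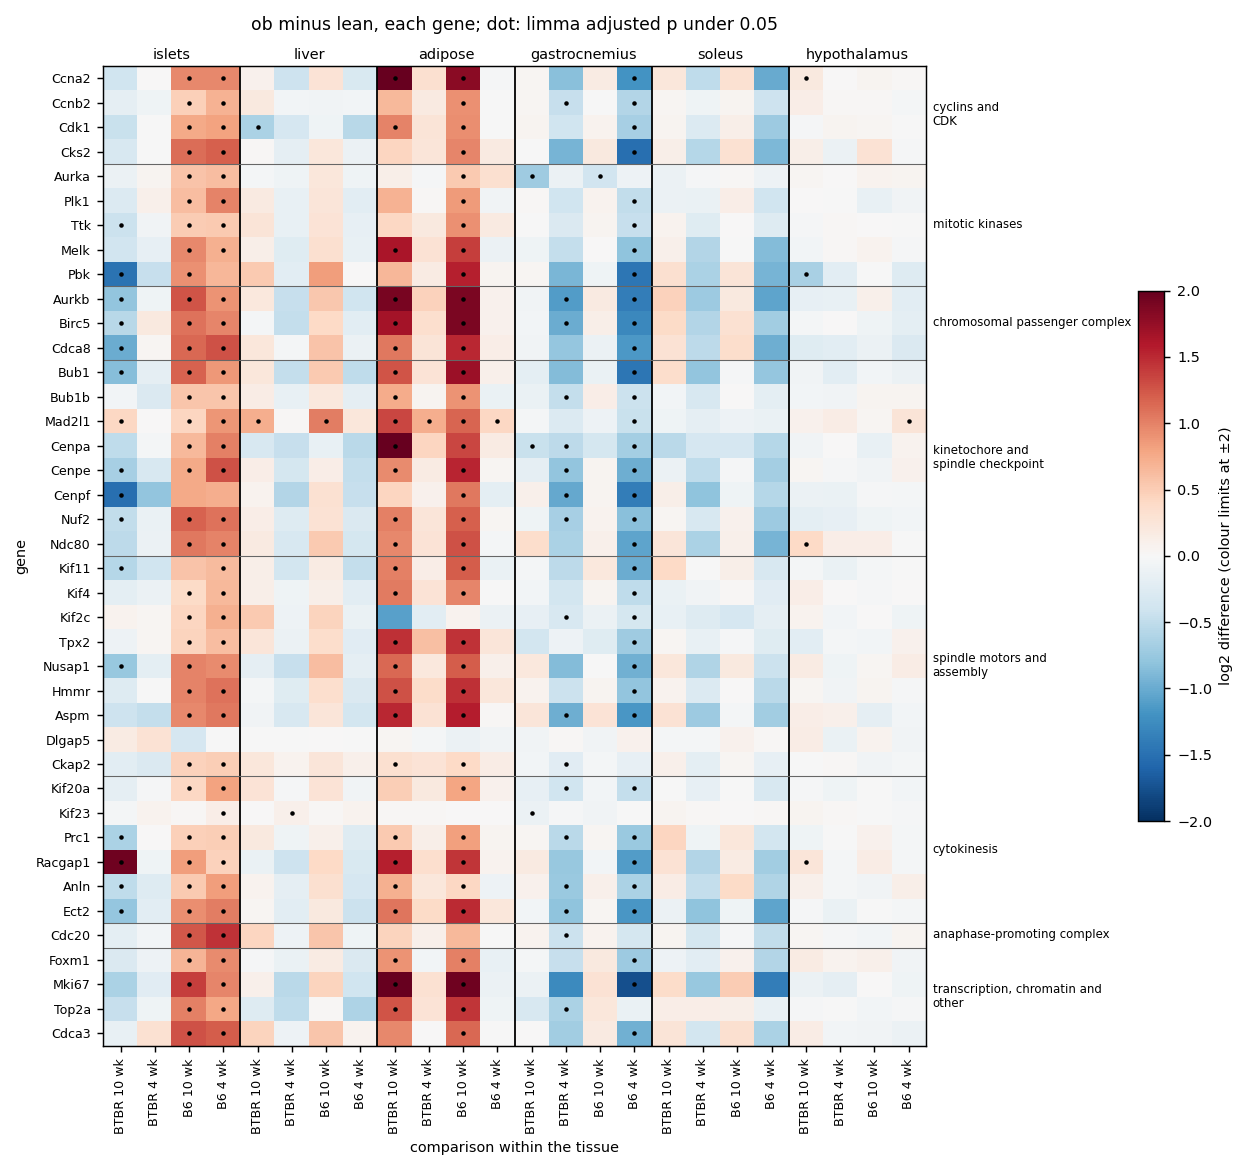
Log2 difference of ob minus lean mice for each of the 40 genes (rows, by role) in 6 tissues, with 4 columns per tissue for BTBR at 10 and 4 weeks and B6 at 10 and 4 weeks; a dot marks a limma adjusted p under 0.05. Red columns (ob higher) are B6 islets at both ages and adipose tissue at 10 weeks. Blue columns are gastrocnemius at 4 weeks and, without dots, soleus at 4 weeks (medians -0.33 in BTBR and -0.57 in B6). Racgap1 is red in BTBR islets at 10 weeks where most other genes are blue.

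Soleus, a slow postural muscle, gave no member past the test for obesity in any strain or age by limma. At 4 weeks the medians were -0.33 in BTBR (4.49% of all genes higher and 2.93% lower) and -0.57 in B6 (2.84% and 2.58%), with 6 and 24 members at an unadjusted p under 0.05. The 10-week medians were 0.09 in BTBR (13.5% and 14.7%) and 0.07 in B6 (8.26% and 7.07%), with 3 and 1 members at that p. Leaving out single mice gave up to 17 calls over these comparisons together, and the 4 mice with liver or kidney genes, when left out, gave 4. Mki67 at 4 weeks ranged from -2.18 to 1.06 in B6 ob mice and from -0.87 to 1.93 in B6 lean mice, and the difference was -1.38 ± 0.55 (limma adjusted p = 0.14). No strain difference passed the limma test in soleus at 10 weeks (3.35% of all genes higher and 3.91% lower) or 4 weeks (0.0402% and 0.0955%), and none had an unadjusted p under 0.05.

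Liver, where hepatocytes divide during early growth, gave called obesity differences in a few members only. At 10 weeks the differences were above 0 for 37 of 40 members in B6 (median 0.28) and for 29 in BTBR (median 0.11). The medians over all genes were 0.016 and 0.026. The limma errors may be too large at this age, as described for gastrocnemius. At 4 weeks the differences were below 0 for 35 members in B6 (median -0.22) and for 37 in BTBR (median -0.19). The 4-week medians over all genes were 0.017 and 0.016. Mad2l1 was called higher in ob mice of both strains at 10 weeks while most members were not called. It was -0.52, -0.23, -0.13, -0.09 and -0.03 in BTBR ob mice, against -1.23, -1.15, -0.87, -0.82 and -0.55 in BTBR lean mice. In B6 ob mice it was -0.28, -0.07, -0.05, 0.02 and 0.06, against -1.27, -1.18, -1.06, -1.06 and -0.90 in B6 lean mice. The groups did not overlap in either strain, and the differences were 0.72 ± 0.27 in BTBR (limma adjusted p = 0.026; 28% of all genes higher and 21.7% lower) and 1.03 ± 0.27 in B6 (adjusted p = 0.0023; 22.6% and 18.8%). Every ob mouse also lay above every lean mouse in B6 for Bub1b, Cdc20, Cdca3, Cdca8, Ckap2, Kif20a, Kif2c, Kif4, Melk and Ttk, and in BTBR for Ckap2. The share of all genes without overlap is not given for liver, so no excess of members is read from this. Cdk1, the mitotic kinase itself, went the other way in BTBR: -0.96, -0.70, -0.66, -0.61 and -0.43 in ob mice, against -0.26, -0.11, -0.05, -0.05 and 0.29 in lean mice, a difference of -0.64 ± 0.23 (adjusted p = 0.021). At 4 weeks the count was 1 in BTBR (Kif23, 0.10 ± 0.03, limma adjusted p = 0.0098; 13% of all genes higher and 10.4% lower) and 0 in B6 (17.1% and 11.8%; 3 members had an unadjusted p under 0.05). No member's strain difference passed the test in liver at 10 weeks (12.8% of all genes higher and 12.8% lower) or 4 weeks (0.447% and 0.94%), and none had an unadjusted p under 0.05 by limma.

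Hypothalamus held the smallest movements. Within a group the SD of the members' mean was 0.02 to 0.10, and the obesity count was 4 in BTBR at 10 weeks (3 higher and 1 lower; 6.35% of all genes higher and 6.24% lower), 0 in B6 at 10 weeks (0.302% and 0.457%; 4 members at an unadjusted p under 0.05), 0 in BTBR at 4 weeks (0.106% and 0.246%; 5 members at that p) and 1 in B6 at 4 weeks (Mad2l1, 0.26; 1.96% and 2.43%). The BTBR members were Ndc80 (0.40), Racgap1 (0.24) and Ccna2 (0.19), all higher, and Pbk, a mitotic kinase also called TOPK, which was lower, at -0.65 ± 0.18 (limma adjusted p = 0.012). Pbk was -1.42, -0.87, -0.73, -0.55 and -0.44 in BTBR ob mice, against -0.24, -0.20, -0.15, -0.13 and -0.01 in BTBR lean mice. Every ob mouse lay below every lean mouse, and mouse 18 lay lowest. No strain difference passed the limma test at 10 weeks (0.307% of all genes higher and 0.246% lower; 2 members at an unadjusted p under 0.05) or 4 weeks (0% and 0%; 0 members at that p).

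In islets, most members were higher in ob mice of the B6 strain at both ages, and few or none in the BTBR strain. At 4 weeks 37 members were higher in B6 ob than in B6 lean mice (24.6% of all genes higher and 20.6% lower), against 0 in either direction in BTBR (22% and 21%; 2 members at an unadjusted p under 0.05). Cdc20 gave the largest value, 1.44 ± 0.21 (limma adjusted p = 1.3e-06). It was 0.15, 0.97, 0.98, 1.62 and 1.62 in B6 ob mice, against -0.74, -0.57, -0.26, -0.14 and -0.14 in B6 lean mice, while BTBR ob mice (0.26 to 1.21) overlapped BTBR lean mice (0.64 to 1.10). The strain difference in the obesity effect was negative for 27 members at 4 weeks (3.68% of all genes higher and 6.09% lower). That count rests in part on single mice: it was 16 without B6 ob mouse 14, and 17 without any 1 of B6 lean mouse 34, B6 ob mouse 5 and BTBR ob mice 11 and 12.

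At 10 weeks the BTBR islets gave 2 members higher and 14 lower in ob mice (25.9% of all genes higher and 25.8% lower), while B6 islets gave 36 higher (24.3% and 19.8%). The BTBR count of 14 of 40 is not far above the share of all genes, though 36 of 40 differences were negative (median -0.40). By role, the lower BTBR members were 3 of 3 passenger proteins, 4 of 8 kinetochore and checkpoint genes, 3 of 6 cytokinesis genes, 2 of 5 kinases and 2 of 9 spindle genes, with 0 of 4 cyclins and partners. Cenpf, a large kinetochore protein, was -3.41, -3.04, -3.00, -2.28 and -2.10 in BTBR ob mice, against -1.94, -1.50, -1.09, -0.98 and -0.75 in BTBR lean mice, a difference of -1.51 ± 0.33 (limma adjusted p = 0.00022) with no overlap. The 2 that were higher were Mad2l1 (0.42 ± 0.16, limma adjusted p = 0.027) and Racgap1. The strain difference at 10 weeks was positive for 1 member, Racgap1, and negative for 34 (16% of all genes higher and 17.5% lower). Without BTBR ob mouse 18, 6 of 40 members were lower in BTBR, a smaller share than the 25.8% of all genes found with that mouse.

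Racgap1, the GTPase-activating partner of Ect2 at the cleavage furrow, parted from the set in BTBR ob islets at 10 weeks. It was 0.48, 0.63, 0.65, 0.98 and 1.07 there, against -1.35, -1.35, -1.16, -1.06 and -1.0 in BTBR lean mice. The difference was 1.95 ± 0.17 (limma adjusted p = 1.8e-11), against 0.83 ± 0.17 in B6 (adjusted p = 0.00019). Its partner Ect2 differed by -0.77 ± 0.27 in the same BTBR mice (adjusted p = 0.019). At 10 minus 4 weeks Racgap1 was higher by 1.02 ± 0.17 in BTBR ob islets (adjusted p = 1.7e-05), where 37 other members were lower. The change of the obesity difference between the ages was positive for Racgap1 and negative for Cdca8 and Prc1 in BTBR islets (11.8% of all genes higher and 13.4% lower), and passed the test for no member in B6 islets (3.68% and 4.43%; 3 at an unadjusted p under 0.05 by limma). A single probe measured it. In adipose tissue at 10 weeks Racgap1 moved with the other members, at 0.29, 0.34, 0.45, 0.47 and 0.91 in BTBR ob mice, against -1.33, -1.20, -1.15, -0.98 and -0.67 in BTBR lean mice. In liver at 10 weeks it was -2.48 to -0.71 in BTBR ob mice and -1.63 to -0.18 in BTBR lean mice, and the ranges overlapped.

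Acinar markers also differed between ob and lean islets. Of 17 measured genes of exocrine acinar cells, 14 were lower in BTBR ob mice at 10 weeks (25.8% of all genes lower) and 9 at 4 weeks (21%). In B6 ob mice 15 were lower at each age (19.8% of all genes at 10 weeks and 20.6% at 4 weeks). With their mean as a covariate, 2 members were higher in B6 at 4 weeks (median 0.46, against 0.85 without the covariate) and 1 higher and 1 lower at 10 weeks (median 0.35, against 0.76), while BTBR at 10 weeks gave 1 higher and 21 lower and BTBR at 4 weeks 2 lower. The strain difference was then negative for 4 members at 4 weeks and for 29 at 10 weeks, with 2 positive at 10 weeks. The shares of all genes called with the acinar covariate were not counted, so these counts cannot be set against them.

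Tested tissue against tissue, the obesity effect in B6 islets at 4 weeks stood above that of each other tissue for 14 to 39 members. The effect in islets was above that in gastrocnemius for 39 members (19% of all genes higher and 16.4% lower), in soleus for 38 (16.5% and 14.5%), in hypothalamus for 37 (19.1% and 14.8%), in liver for 25 (16.8% and 16%) and in adipose tissue for 14 (15.7% and 17.5%), and below it for none. At 10 weeks it was above that in hypothalamus for 32 (18.8% and 15.2%), in gastrocnemius for 24 (20.8% and 16.7%), in soleus for 12 (19.3% and 16.5%) and in liver for 2 (19.3% and 19.4%), and below that in adipose tissue for 2 (19.2% and 21.2%). For Mki67 the difference between islets and gastrocnemius in B6 at 4 weeks was 2.73.

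In BTBR mice the sharpest contrast was between islets and adipose tissue at 10 weeks. The islet effect was below the adipose effect for 33 members and above it for none (median -1.46; 23% of all genes higher and 24.3% lower). For Mki67 the difference was -2.96 ± 0.46 (limma adjusted p = 1.4e-07) and for Aurkb -2.68 ± 0.40 (adjusted p = 5.8e-08). Against the other tissues at 10 weeks the islet effect was lower for 10 members in hypothalamus (1 higher; 21.3% of all genes higher and 20.9% lower), 8 in soleus (2 higher; 21.9% and 21.7%), 5 in gastrocnemius (3 higher; 23.9% and 21.3%) and 5 in liver (1 higher, Racgap1; 24% and 26.8%). At 4 weeks the BTBR counts were 3 higher against gastrocnemius (18% and 17.7%), 2 lower against adipose tissue (13.7% and 18.3%), and 0 against liver (16.1% and 16.6%), soleus (14.4% and 15.2%) and hypothalamus (17.1% and 15.8%). With the mouse as a block shared by both tissues, none of these calls was lost.

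In lean mice of islets, liver, soleus and gastrocnemius, most members were lower at 10 than at 4 weeks. In islets 38 members were lower at 10 than at 4 weeks in BTBR lean mice (8.44% of all genes higher and 8.24% lower) and 37 in B6 lean mice (6.98% and 7.98%), and the ob mice gave 37 lower in BTBR (16.8% and 17%) and 38 in B6 (8.49% and 10.2%). In liver 37 were lower in BTBR lean mice (11.1% and 11%) and 38 in B6 lean mice (10.4% and 11.3%). In soleus 36 were lower in BTBR lean mice (15.7% and 14%) and 32 in B6 lean mice (13.2% and 11.5%). In gastrocnemius 34 were lower in BTBR lean mice (19.1% and 17.4%) and 33 in B6 lean mice (24.6% and 17.9%), where Aurka was higher in both strains and Tpx2, an activator of Aurka on the spindle, in BTBR. In soleus, Mki67 was -3.40, -2.83, -2.82, -2.56 and -2.50 at 10 weeks in BTBR lean mice, against 0.64, 0.70, 0.91, 1.02 and 1.31 at 4 weeks, a difference of -3.74 ± 0.55 (limma adjusted p = 2.9e-06).

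Outside the islets, the counts in ob mice were uneven. In liver 21 members were lower at 10 weeks in BTBR ob mice (12.7% of all genes higher and 10.4% lower) and 18 in B6 ob mice (9.86% and 8.81%). Mki67 in liver was -2.45, -1.72, -1.62, -1.48 and -1.41 at 10 weeks in BTBR ob mice, against -1.22, -0.76, -0.54, 1.51 and 1.55 at 4 weeks. The 4-week mice spread over nearly 3 log2 units, and the counts move with single mice: 5 to 29 in BTBR ob (5 without BTBR ob mouse 11) and 4 to 28 in B6 ob (4 without B6 ob mouse 5). In soleus 32 were lower and 1 higher in BTBR ob mice (16% and 16.6%) but 1 lower in B6 ob mice (Top2a, topoisomerase II alpha; 3.98% and 3.04%). In gastrocnemius 14 were lower in BTBR ob mice (15.3% and 17.4%; 5 without BTBR ob mouse 13) and 0 in B6 ob mice (11.9% and 9.45%; 3 at an unadjusted p under 0.05). Whether ob and lean mice differ in the size of the change is the test of 10 minus 4 weeks in the obesity difference, given above for adipose tissue and gastrocnemius. By limma it was 0 of 40 in liver, with 1 member in BTBR (7.36% of all genes higher and 6.7% lower) and 2 in B6 (3.5% and 3.32%) at an unadjusted p under 0.05. It was 0 of 40 in soleus by limma, with 3 in BTBR (2.01% and 2.8%) and 13 in B6 (0.96% and 0.744%) at that p. In liver the change was above 0 for 37 members in BTBR (median 0.29) and 38 in B6 (median 0.58). In soleus it was above 0 for 36 in BTBR (median 0.39) and 38 in B6 (median 0.61).

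Hypothalamus had few members that changed with age. At 10 minus 4 weeks 2 were lower in BTBR lean mice (1.41% of all genes higher and 3.6% lower), 3 lower and 1 higher in BTBR ob mice (6.34% and 6.91%), 5 lower and 1 higher in B6 lean mice (4.19% and 6.07%) and 2 lower and 1 higher in B6 ob mice (2.78% and 3.47%). Mki67 fell by 0.53 ± 0.15 in BTBR lean, 0.46 ± 0.15 in BTBR ob and 0.56 ± 0.15 in B6 lean mice (limma adjusted p = 0.032, 0.037 and 0.015), and was at -0.45 ± 0.15 (adjusted p = 0.067) in B6 ob mice.

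**Figure D4:**
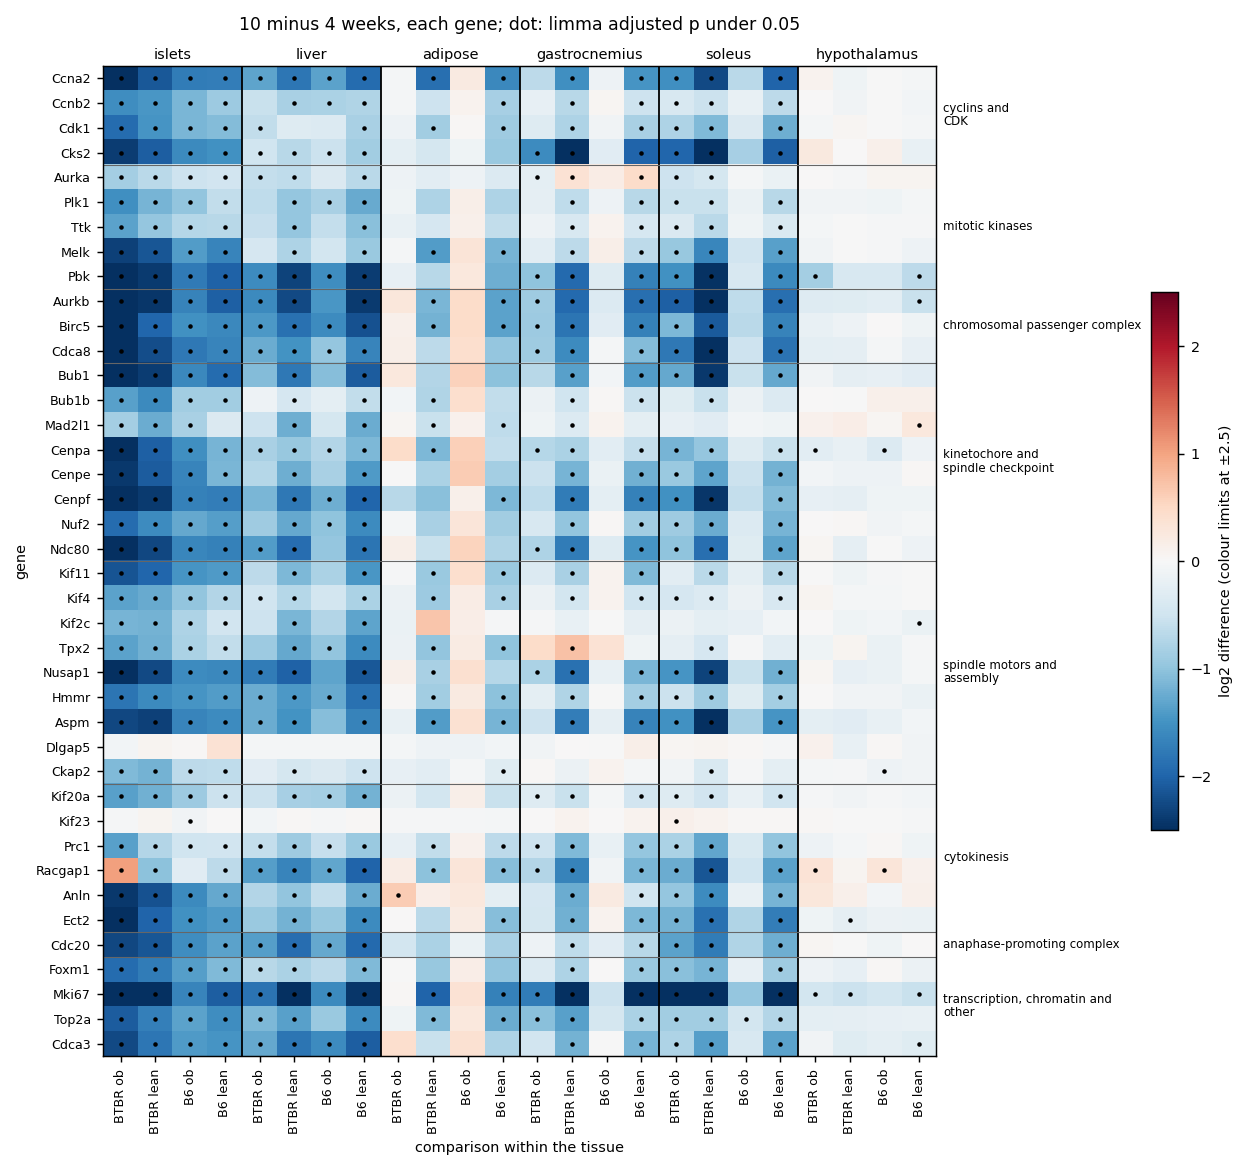
Log2 difference of 10 minus 4 weeks for each of the 40 genes (rows, by role) in 6 tissues, with 4 columns per tissue for BTBR ob, BTBR lean, B6 ob and B6 lean mice; a dot marks a limma adjusted p under 0.05. Blue (lower at 10 weeks) fills islets and the lean columns of liver, gastrocnemius and soleus, the ob columns of adipose tissue are near 0, and Racgap1 in BTBR ob islets is the red cell at 1.02.

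Young mice differed from their group mates in the same way in several tissues. For each mouse the group mean was subtracted, and deviations of the same animal were compared between tissues, a comparison added after the values were seen. For Mki67 at 4 weeks all 10 pairs among liver, adipose tissue, gastrocnemius, soleus and hypothalamus correlated (adjusted p under 0.05 over 30 relations, permutation within groups, two-sided), and none of the 5 pairs with islets did. Between gastrocnemius and soleus Pearson's r was 0.907 and Spearman's rho 0.899 over 20 mice, with r = 0.889 after the 2 farthest mice were left out (permutation adjusted p = 0.0006 for r). Between liver and adipose tissue r was 0.858 and rho 0.914 (permutation adjusted p = 0.00075 for r).

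For Mki67 the relation at 10 weeks was present in 1 of 15 pairs, liver with adipose tissue (r = 0.755, rho = 0.756, r = 0.713 without the 2 farthest mice, permutation adjusted p = 0.0081 for r). The set as a whole did not share it. In that pair the members' mean gave r = 0.049 and rho = 0.453, without a test. The median r of single members there was 0.0745, against 0.0916 over all genes. Over the 15 pairs the median r of Mki67 was 0.283 at 10 weeks and 0.749 at 4 weeks. The members' mean gave medians of 0.171 and 0.755. The pooled SD within groups was also smaller at 10 weeks: 0.196 against 0.668 in liver, 0.127 against 0.502 in soleus, 0.110 against 0.388 in gastrocnemius, 0.355 against 0.485 in adipose tissue and 0.241 against 0.356 in islets. At 4 weeks the members' mean was above the group mean in all 6 tissues in BTBR ob mouse 13, BTBR lean mouse 37, B6 ob mouse 5 and B6 lean mice 35 and 47. It was below the group mean in all 6 in BTBR ob mouse 16 and B6 lean mouse 34. Body weight, exact age and litter of single mice were not analysed here, and their part in this was not tested.

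**Figure D5:**
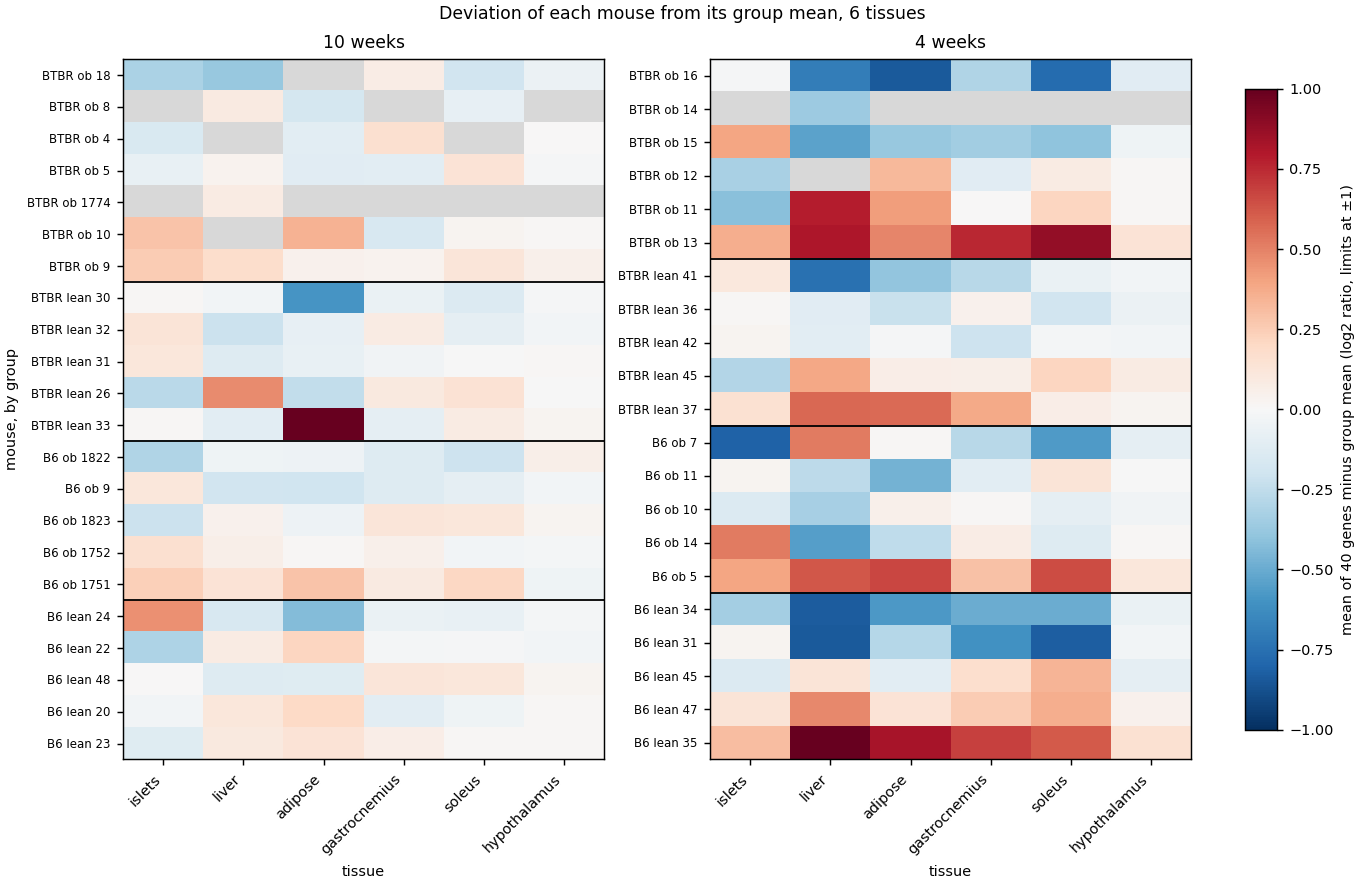
Deviation of each mouse from its group mean (mean of the 40 genes, log2 ratio, colour limits at ±1) in 6 tissues (columns), at 10 weeks and at 4 weeks; grey marks a tissue with no array for that mouse. At 4 weeks several mice, such as B6 lean 35, 34 and 31, have one colour from liver to soleus; at 10 weeks most cells are pale, with BTBR lean mouse 33 in adipose tissue the strongest.

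Other genes of the cell cycle were counted in lists kept apart from the set, and differences between the lists were not tested. Of 58 other mitosis genes measured, 38 were higher and 2 lower in BTBR ob adipose tissue at 10 weeks (22.7% of all genes higher) and 44 higher and 1 lower in B6 (23.4%). At 4 weeks 7 were higher and 2 lower in BTBR (18.5% of all genes higher) and 4 higher and 3 lower in B6 (18%), shares below those of all genes. In gastrocnemius at 4 weeks 13 were lower in BTBR ob mice (3.02% of all genes lower) and 37 in B6 ob mice (7.55%), with none higher. In islets at 10 weeks 3 were higher and 18 lower in BTBR ob mice (25.9% of all genes higher and 25.8% lower), and 42 higher and 3 lower in B6 ob mice (24.3% and 19.8%). Of 20 cell cycle transcription regulators, 12 were higher and 0 lower in BTBR adipose tissue at 10 weeks (22.7% of all genes higher and 21.4% lower). In B6 2 were lower and 11 higher (18.3% and 23.4%), among them E2f1, the activator of S-phase genes (0.67 in BTBR and 0.43 in B6). Of 8 cyclins and kinases of the D and E types, 2 were higher and 3 lower in BTBR ob islets at 10 weeks (25.9% of all genes higher and 25.8% lower). At 4 weeks 1 was higher and 1 lower in BTBR (22% and 21%). In B6 1 was higher and 1 lower at 10 weeks (24.3% and 19.8%), and 2 and 1 at 4 weeks (24.6% and 20.6%). With 8 genes, these counts do not stand apart from the shares of all genes. Of the 8, cyclin D2 (Ccnd2), which carries growth signals to the cycle in beta cells, was lower in ob islets of both strains and ages, with differences of -1.67 and -0.78 in BTBR at 10 and 4 weeks and of -0.83 and -0.95 in B6. Of 7 CDK inhibitors, 3 were higher and 1 lower in BTBR ob adipose tissue at 10 weeks (22.7% of all genes higher and 21.4% lower). At 4 weeks 2 were higher and 1 lower in BTBR (18.5% and 13.4%). In B6 2 were higher and 2 lower at 10 weeks (23.4% and 18.3%), and 1 and 0 at 4 weeks (18% and 15.2%). The inhibitor Cdkn2b was higher in ob adipose tissue in all 4 comparisons, by 0.78 and 1.27 in BTBR at 10 and 4 weeks and by 1.57 and 1.80 in B6.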

How the data were processed

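RNA of 1 mouse and of its pool was labelled with Cy3 and Cy5 and hybridised to 1 array, per the labels. The deposited values are log10 ratios of mouse to pool, held within ±2; 757 values lie at that limit. How background and dyes were corrected is not given in the sources used here; array medians lay between -0.0336 and 0.0325. The number of arrays limits the precision, since the files give no counts.

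Ratios were turned into log2. Of 39556 probes, 23283 had 1 gene symbol in the platform annotation and 16273 were not analysed; probes were averaged to 19896 genes. limma 3.58.1 in R 4.3.3 fitted 8 group means per tissue (40 arrays) with empirical Bayes, two-sided, with Benjamini-Hochberg adjustment over all genes and a threshold of 0.05; islets and each other tissue were also fitted together. The fit was tested on simulated data. Each gene had 1 variance over both ages, in the fit and in the simulated data, although the members' mean spread more at 4 weeks. Sequences and motif counts came from RefSeq promoters of GRCm38.p6; Python 3.11.15, numpy 2.4.6, pandas 2.3.3 and matplotlib 3.10.9 were used.

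Named in full were, per comparison and direction, the 4 called members that changed most, those that went against the rest, and Mki67, Aurkb and Racgap1, from which a few were taken for each comparison; Ccnd2, Cdkn2b, E2f1, Itgax, Myog and Vcam1 come from the pathway and marker lists. The members and lists were chosen with earlier results of these data known. Settings tried were centring, the probe with the largest SD, robust moderation, 1 strain alone, leaving out mice, acinar markers as a covariate and a mouse block; the macrophage and testis covariates, the adipose fits without BTBR lean mouse 33 or the testis-marked mice, the soleus fit without liver or kidney genes and the comparison of the same mouse in 2 tissues were chosen after seeing the data. A number marks the same mouse in every tissue, per the labels. In 15 of 15 tissue pairs the deviations of the same mouse correlated more (median) than those of different mice, but the margins were small. The same-mouse median was lowest for islets and soleus (0.0056, against -0.0011 for different mice). It was highest for gastrocnemius and soleus (0.28, against -0.0077).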

Additional observations from a re-analysis of the deposited data

Results flagged for a closer look

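Of 192 groups of 5 mice (means of the members and the genes named in every tissue), 6 held a mouse whose gap to its nearest neighbour was over 0.71 of the group's range (Dixon's critical value), where chance gives about 1 in 20. BTBR lean mouse 26 stood high in liver at 10 weeks in Racgap1 (-0.182, nearest -1.26), Mki67 (-0.127, nearest -2.15) and the mean of the members (-0.35, nearest -0.848). BTBR ob mouse 18 stood low in liver at 10 weeks in the mean of the members (-1.09, nearest -0.674). In gastrocnemius Racgap1 stood high in BTBR ob mouse 13 at 4 weeks (1.16, nearest 0.099) and in B6 lean mouse 48 at 10 weeks (-0.26, nearest -0.457).

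Differences between groups were tested directly, by limma with adjustment over all genes. In islets the strain difference of the obesity effect was negative for 27 members at 4 weeks, and positive for 1 and negative for 34 at 10 weeks. The obesity effect at 10 minus 4 weeks was positive for 1 and negative for 2 members in BTBR islets, positive for 8 in BTBR and 16 in B6 adipose tissue, and positive for 1 and negative for 1 in BTBR and positive for 20 in B6 gastrocnemius.

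Between islets and another tissue, the obesity effect of BTBR mice at 10 weeks was higher in islets for 1 member and lower for 5 against liver, lower for 33 against adipose tissue, higher for 3 and lower for 5 against gastrocnemius, higher for 2 and lower for 8 against soleus, and higher for 1 and lower for 10 against hypothalamus. At 4 weeks in BTBR it was lower for 2 against adipose tissue and higher for 3 against gastrocnemius. In B6 at 10 weeks it was higher for 2 against liver, 24 against gastrocnemius, 12 against soleus and 32 against hypothalamus, and lower for 2 against adipose tissue. In B6 at 4 weeks it was higher for 25, 14, 39, 38 and 37 members against liver, adipose tissue, gastrocnemius, soleus and hypothalamus.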

How the results depend on the processing

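Of 34 counts and descriptions, 25 stayed within 1.5 times under every setting other than leaving out single mice, and of 31 that were run without single mice 22 did; 139 of 154 values under the other settings were within 1.5 times. No single member's call turned its direction under any setting run. With acinar markers as a covariate, islet calls for obesity were 2 in B6 at 4 weeks, 2 in B6 at 10 weeks and 2 in BTBR at 4 weeks, and the strain difference at 4 weeks was 4. BTBR islets at 4 weeks gave 2 calls in a fit of 1 strain and 1 with centred arrays, and BTBR islets at 10 weeks gave 8 without BTBR ob mouse 18. The adipose count for 10 minus 4 weeks was 14 with the macrophage covariate, 69 with the testis covariate and 65 without BTBR lean mouse 33, against 38. The gastrocnemius strain difference gave 1 call with centred arrays and 1 with the probe of largest SD. Soleus gave 2 obesity calls in a fit of 1 strain and 4 without the mice with liver or kidney genes, against 0. In the 250 bases before the start alone, 48.6% of members, 51.9% of other mitosis genes and 28.1% of all genes held TTTGAA or TTTAAA, which turns round the order of members and other mitosis genes. The cause of these changes was not tested, except where fewer samples or bases entered by construction. The shares of all genes called were not counted under these settings.

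Without single mice, counts ran from 32 to 65 for adipose tissue with age, 38 to 76 for gastrocnemius with obesity, 0 to 1 for its strain difference, 2 to 7 for liver and 3 to 7 for hypothalamus with obesity, 0 to 17 for soleus with obesity, 8 to 19 for BTBR islets at 10 weeks, 0 to 3 at 4 weeks, 16 to 37 for the islet strain difference at 4 weeks, 20 to 43 and 40 to 65 for islets against liver and adipose tissue, and 35 to 67 for the change of the obesity effect with age over all tissues. The mouse as a replicate block gave 35, 54, 76, 60 and 81 calls for islets against liver, adipose tissue, gastrocnemius, soleus and hypothalamus, against 33, 51, 74, 60 and 80 without it, and 298 of 298 single calls were kept.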

Other observations

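Gonadal adipose arrays also held epididymis genes. The mean of 8 such genes was 2.19 in BTBR lean mouse 32 and 1.55 in B6 lean mouse 24, both at 10 weeks, and 1.06 in B6 ob mouse 10 at 4 weeks. In muscle, the testis germ cell mean of B6 lean mouse 20 at 10 weeks was 1.42 in soleus and 1.09 in gastrocnemius. The list was written after values were seen, and how these traces arose was not tested.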
